A study of Sus scrofa domesticus and Sus scrofa with 18 samples.

Results

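The spleens of weaned pigs (W30d) and of 180-day-old pigs (A180d) were compared in 6 of the 18 libraries of a developmental series. The 6 libraries were chosen by the stage in their labels, with 3 of W30d and 3 of A180d, and no measured value entered that choice. All 6 pigs were females of the Rongchang pig, an indigenous Chinese breed, with no genotype difference or treatment described. W30d animals had been weaned for 30 days and A180d animals were 180 days of age. The remaining libraries, 3 each, came from fetuses at 55 days before birth (E55d), newborns (B0d), 2-year-old Rongchang pigs (A2Y) and 2-year-old Wild Boars (WB), and B0d, A2Y and WB serve below as libraries outside the comparison. Each library held strand-specific RNA-seq of whole spleen from another animal, so the replicate numbers only name libraries. Stage, age, weaning and any difference in handling between the stages cannot be told apart.

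The spleen filters blood in its red pulp, where macrophages remove aged erythrocytes and recycle their iron, and mounts adaptive immune responses in its white pulp, which holds B-cell follicles and T-cell zones. In fetal and early postnatal life it can also be a site of blood formation, with erythroid precursors and megakaryocytes. Mature B cells that meet antigen become plasma cells, which fill their endoplasmic reticulum with the machinery of antibody secretion. In whole tissue, fewer cells of a type and less RNA per cell cannot be told apart.

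Values are log2(FPKM+1), where FPKM counts fragments per length of transcript and per size of the library. All 12913 protein-coding genes and 14129 of 15040 lncRNAs exceeded an FPKM of 0.1 in 3 or more of the 18 libraries and were tested. Differences are A180d minus W30d on this log2 scale and understate the change of low genes. They were tested with limma, a linear model that shares variance estimates across genes. Features were called at a Benjamini-Hochberg adjusted p of at most 0.05 over all features of a table. The model held all 18 libraries in 6 groups. An SE or p thus pools the spread of all groups and does not measure that of W30d alone. Relative depth, estimated from the steps in low lncRNA values, was 0.697 in W30d replicate 2 and 0.886 in W30d replicate 3, against 1 in W30d replicate 1. It was 1.01, 0.927 and 0.883 in the A180d replicates 1 to 3. By the amount of filtered sequence that the study lists per library, W30d replicate 2 was not the lowest of the 6 and A180d had less than W30d on average, so which stage was the shallower is not settled here. Spleen genes were present in every library: SPIC, the transcription factor of red pulp macrophages, lay between 6.76 and 7.12 and did not pass the test (difference -0.10).

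One library stood apart. W30d replicates 1 and 3 correlated with each other at r = 0.98 across protein-coding genes, whereas W30d replicate 2 correlated with them at 0.93 and 0.94 and with the A180d libraries at 0.94, 0.95 and 0.96. These correlations are across genes, which are not independent replicates. The mean correlation within stages exceeded that between stages by 0.051 (protein-coding genes) and 0.094 (lncRNAs). A one-sided exact permutation test gave p = 0.1 in either table, which is the smallest p possible with 3 libraries against 3. Because of W30d replicate 2, counts are given below also for W30d replicates 1 and 3 alone against A180d and for W30d replicate 2 alone. The last fit assumes that the lone library varies like the others.

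Of 12913 protein-coding genes, 3633 were called (28.1%), of which 1648 were higher at A180d (12.8%) and 1985 lower (15.4%). Among the called genes, 349 were higher and 626 lower by at least 1 on the log2 scale, and 37 were higher and 106 lower by at least 2. Without W30d replicate 2, 4330 genes were called (33.5%), with 2055 higher and 2275 lower. With W30d replicate 2 as the lone W30d library, 191 were called (1.48%), with 66 higher and 125 lower. The stages did not overlap in 45.3% of the genes, with 21.1% higher and 24.2% lower at A180d. Genes named for the largest rises or falls were chosen among those without overlap, so their separation carries no weight of its own. The median difference of all genes was -0.0009. The balance of the directions depended on the scaling: the called genes were 45.4% higher as deposited and 48.5% higher after median ratio scaling. It was 3.5% after scaling to the summed FPKM without the most abundant gene, which moved the median of all genes to -0.36. That sum can still depend on other abundant entries. In A180d replicate 2, where the most abundant gene is listed at 0, another entry held 32.15% of the summed FPKM of protein-coding genes. The part of such entries in the results under this scaling was not tested.

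Genes of red cell formation were lower at A180d. Of 10 measured erythroid genes, 0 were called higher and 8 lower, with a median difference of -3.07. Of 7 genes of haem synthesis, 6 were lower, with a median of -2.10. RHAG, a membrane protein of the Rh complex of erythrocytes, read 6.84, 0.61 and 6.33 in the W30d replicates 1 to 3 and 0.58, 0.59 and 0.33 at A180d. W30d replicates 1 and 3 were high and W30d replicate 2 stood just above the A180d range. The difference was -4.09 ± 1.04 (SE, n = 3 per stage, adjusted p = 0.00916), and -6.09 without W30d replicate 2. TRIM10, a protein of terminal erythroid differentiation, showed the same order, at 5.68, 0.30 and 5.43 against 0.15, 0.19 and 0.25 (difference -3.61, adjusted p = 0.00898).

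SLC4A1, the anion exchanger band 3 of the erythrocyte membrane, read 7.57, 0.86 and 7.21 at W30d and 0.67, 1.01 and 0.73 at A180d. Its W30d replicate 2 lay inside the A180d range. EPB42, which anchors band 3 to the cytoskeleton (difference -3.93), and HBM, an alpha-like globin (-4.52), behaved likewise and were also called. KEL, a blood group antigen (-2.08), DMTN, an actin-bundling protein (-1.61), and XPO7, a nuclear export receptor (-2.54), completed the 8 called members. EPOR, the erythropoietin receptor, differed by -1.17 and did not pass the test. HBB, the adult beta globin, is listed at 0 in W30d replicates 1 and 3, against 11.06 in W30d replicate 2 and 10.97, 12.33 and 12.21 at A180d. These zeros stand in the libraries in which every called erythroid gene was high, so no fold is given for HBB.

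In haem synthesis, UROD, which decarboxylates uroporphyrinogen, read 8.23, 3.97 and 7.52 at W30d and 4.48, 4.14 and 4.14 at A180d, with W30d replicate 2 below the A180d range (difference -2.32, adjusted p = 0.0236). CPOX, the coproporphyrinogen oxidase, differed by -2.24, and FECH, which inserts the iron, by -2.10. ALAS1, the housekeeping form of the first enzyme, read between 2.14 and 2.44 in the 6 libraries and did not pass the test. Over the 9 erythroid genes other than HBB the mean level was 6.38, 1.51 and 6.003 at W30d and 1.46, 1.74 and 1.38 at A180d. Over the 7 haem synthesis genes it was 6.04, 2.73 and 5.44 against 2.95, 2.93 and 2.80. In both lists W30d replicates 1 and 3 were high, and W30d replicate 2 was inside or below the A180d range.

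The fall of these lists rested on W30d replicates 1 and 3. With W30d replicate 2 left out, 9 of 10 erythroid genes were called lower, and the 1 called higher was HBB. Of the 7 haem synthesis genes 6 were then called lower, and the medians were -4.55 and -3.25. Against W30d replicate 2 alone, 0 members of either list were called, with medians of -0.08 and 0.18. Among the libraries outside the comparison, the mean of the 9 erythroid genes was 5.46, 5.49 and 4.25 at B0d and 1.51, 0.99 and 1.79 at A2Y. W30d replicates 1 and 3 were thus above the newborn libraries, and W30d replicate 2 was within the range of A2Y.

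**Figure D1:**
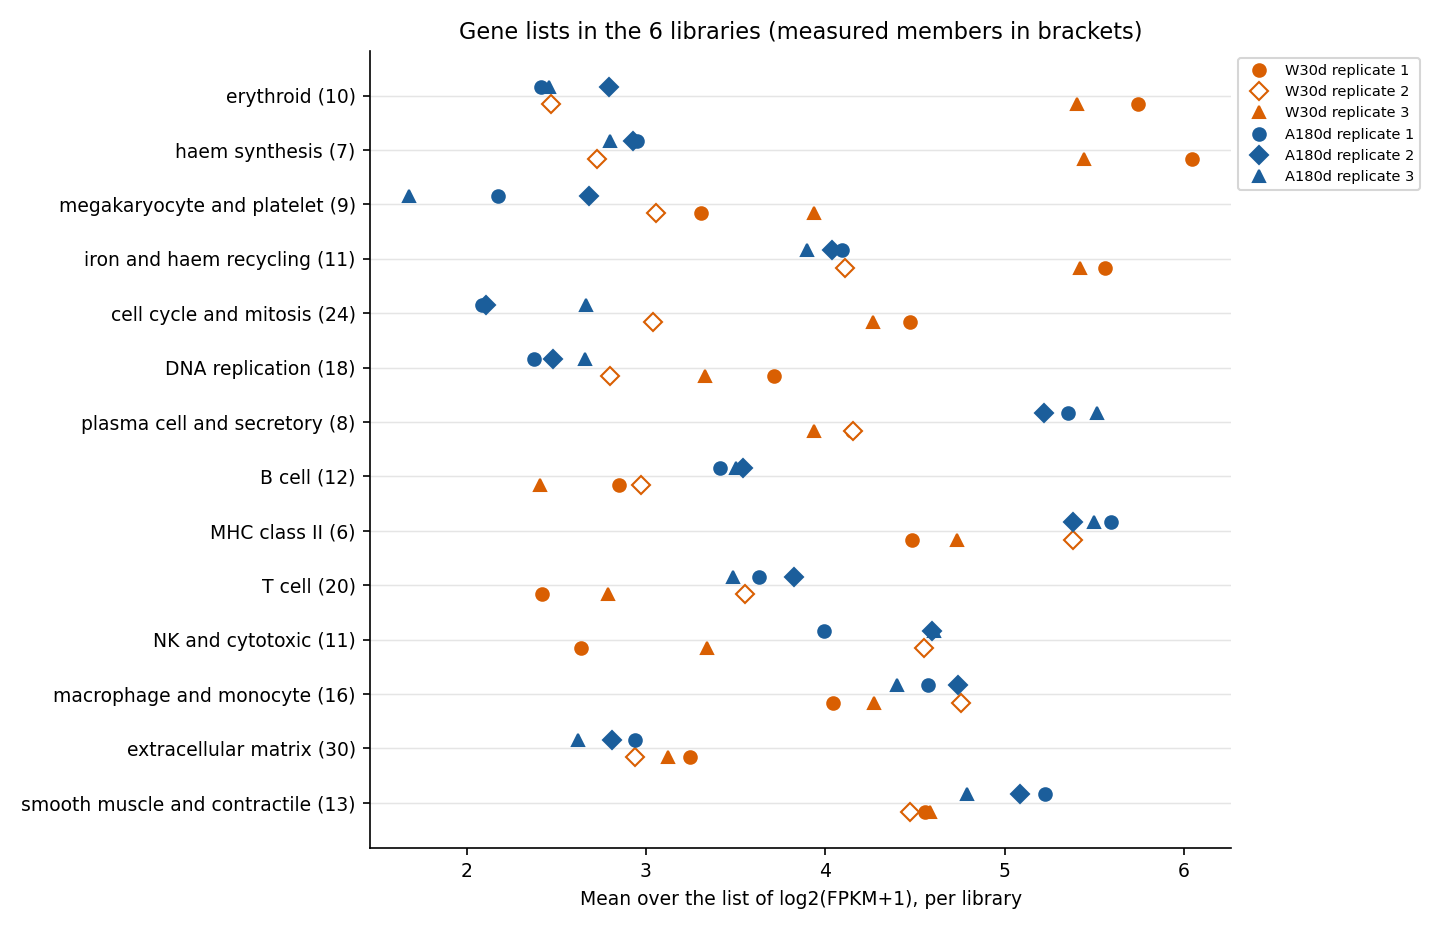
Each row is a gene list with its number of measured members in brackets, and each point is the mean log2(FPKM+1) of those members in 1 library, with W30d in orange, its replicate 2 as an open diamond, and A180d in blue. In the erythroid row (which here includes HBB) and the haem synthesis row, W30d replicate 2 lies with A180d, whereas in the plasma cell and B cell rows all W30d libraries lie below all A180d libraries.

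Genes of iron handling fell in part. Of 11 measured genes, 0 were higher and 5 lower, with a median of -0.39. TFRC, the transferrin receptor through which erythroid and dividing cells take up iron, read 8.35, 4.28 and 7.75 at W30d and 3.88, 3.48 and 3.62 at A180d. All W30d values were above all A180d values, with a difference of -3.13 ± 0.67 (SE, n = 3 per stage, adjusted p = 0.00362). BLVRB, a biliverdin reductase, fell by 2.29 and NCOA4, the receptor for the breakdown of ferritin, fell by 1.41. CP, the ferroxidase ceruloplasmin, read 3.14, 2.48 and 3.08 against 0.73, 1.17 and 0.82, so that for this gene W30d replicate 2 sat with its own stage. FTL, the ferritin light chain, read 11.11 to 11.50 at W30d and 11.42 to 11.78 at A180d and was not called. When W30d replicate 2 was left out, 6 of the 11 were lower, and against it alone 0 were called.

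Platelet and megakaryocyte genes fell as well. Of 9 measured, 6 were lower and 0 higher, with a median of -1.40, and the same counts held without W30d replicate 2. GP1BB, a subunit of the platelet receptor for von Willebrand factor, read 5.54, 4.32 and 5.97 at W30d and 1.47, 3.07 and 0.28 at A180d. The A180d libraries differed widely from each other, yet all were below W30d (difference -3.67 ± 0.51, SE, n = 3 per stage, adjusted p = 0.000326). SELP, the adhesion molecule P-selectin (-1.91), ITGB3, an integrin of the fibrinogen receptor (-1.67), and F5, coagulation factor V (-1.60), also fell. Against W30d replicate 2 alone the median was -1.03 and 0 were called. NFE2, a transcription factor of erythroid cells and megakaryocytes, is in none of the lists. It read 5.88, 1.97 and 5.41 at W30d and 1.51, 1.62 and 1.298 at A180d (difference -2.94, adjusted p = 0.00642). With only the 6 libraries in the limma model, NFE2 was not called either (adjusted p = 0.0603).

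Genes of cell division were lower at A180d in nearly the whole list. Of 24 measured genes of the cell cycle and mitosis, 22 were called lower and 0 higher, with a median of -1.75. CENPF, a kinetochore protein, read 5.62, 3.36 and 5.22 at W30d and 1.47, 1.66 and 2.23 at A180d. W30d replicate 2 was in between, above all A180d libraries and below the other W30d libraries, and the difference was -2.94 ± 0.46 (SE, n = 3 per stage, adjusted p = 0.000582). CENPE, the kinetochore motor, fell by 2.53, SMC4, a condensin subunit, by 2.15, and CDK1, the kinase that drives entry into mitosis, by 2.13 on the log2 scale. AURKB, a mitotic kinase, and CDCA3 (differences -0.51 and -0.84) were the 2 members that were not called.

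Of 18 genes of DNA replication, 12 were lower and 0 higher, with a median of -0.99. PRIM1, the small primase subunit, read 3.96, 3.32 and 3.91 at W30d and 2.45, 2.47 and 2.69 at A180d (difference -1.19, adjusted p = 0.00155). CDC6, a licensing factor, fell by 1.16 and UHRF1, which couples replication to DNA methylation, fell by 1.12. MCM5, a subunit of the replicative helicase, differed by 0.07 and was not called. Without W30d replicate 2, all 24 cell cycle genes and 13 of 18 replication genes were lower, with medians of -2.25 and -1.15. With that library alone, 1 cell cycle gene, CENPE, and 0 replication genes were called, with medians of -0.82 and -0.34.

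Plasma cell genes were higher at A180d. Of 8 measured genes of plasma cells and secretion, 6 were higher and 0 lower, with a median of 1.11. After median ratio scaling 6 were higher. After scaling to the sum without the most abundant gene 4 were higher, beside 145 of all 12913 genes. MZB1, an endoplasmic reticulum chaperone of antibody assembly, read 4.98, 5.14 and 4.24 at W30d and 8.30, 8.11 and 8.54 at A180d. All A180d libraries were above all W30d libraries, with a difference of 3.53 ± 0.33 (SE, n = 3 per stage, adjusted p = 1.91e-05). It was 3.71 without W30d replicate 2 and 3.17 against that library alone (adjusted p = 0.00848). XBP1, the transcription factor of the secretory programme, read 6.02, 5.95 and 5.71 against 7.57, 7.20 and 7.86, again without overlap (difference 1.65, adjusted p = 0.000678). CRELD2, a protein of the endoplasmic reticulum, rose by 1.80, SEC11C, a signal peptidase subunit, by 1.29, SDC1, the plasma cell surface proteoglycan syndecan-1, by 0.92, and PRDM1, the regulator of plasma cell fate, by 0.51. HSPA5, a general chaperone of the same compartment, differed by 0.06 and CD38, a surface enzyme, by 0.52, and neither was called. SDC1 was not called without W30d replicate 2 (0.62, adjusted p = 0.0887).

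B cell genes were higher as well. Of 12 measured, 9 were higher and 0 lower, with a median of 0.74, and 9 were higher after median ratio scaling. After scaling to the sum without the most abundant gene 2 were higher, with a median of 0.26, beside 145 of all 12913 genes. BLK, a kinase downstream of the B cell receptor, read 0.76, 1.01 and 0.56 at W30d and 2.06, 2.11 and 2.08 at A180d. The groups did not overlap and the A180d values were nearly equal (difference 1.305 ± 0.13, SE, n = 3 per stage, adjusted p = 1.91e-05). CXCR5, the receptor that brings B cells into follicles, rose by 1.19, CD79B, a signalling chain of the B cell receptor, by 1.18, and CD72, a co-receptor, by 1.03. BANK1, a B cell scaffold protein, differed by -0.06 and was not called. Without W30d replicate 2, 10 of 12 were higher, and against it alone 2, BLK and CXCR5, were, with a median of 0.58. Of 6 germinal centre genes, S1PR2, which confines B cells to the germinal centre (1.02), and GCSAM, a germinal centre signalling protein (0.96), were higher and 0 were lower. Without W30d replicate 2, 2 were higher and 1 lower, and after scaling to the sum without the most abundant gene 0 were higher and 1 lower.

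VPREB1, a surrogate light chain component, was the 1 immunoglobulin gene of the 7 listed that was measured under its symbol. It read 3.63, 3.27 and 2.64 at W30d and 6.15, 5.00 and 5.17 at A180d. The stages did not overlap, and the difference was 2.26 (adjusted p = 0.000506), with 2.31 without W30d replicate 2 and 2.17 against it alone. Genes of the antibody chains themselves were not analysed here under a symbol.

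**Figure D2:**
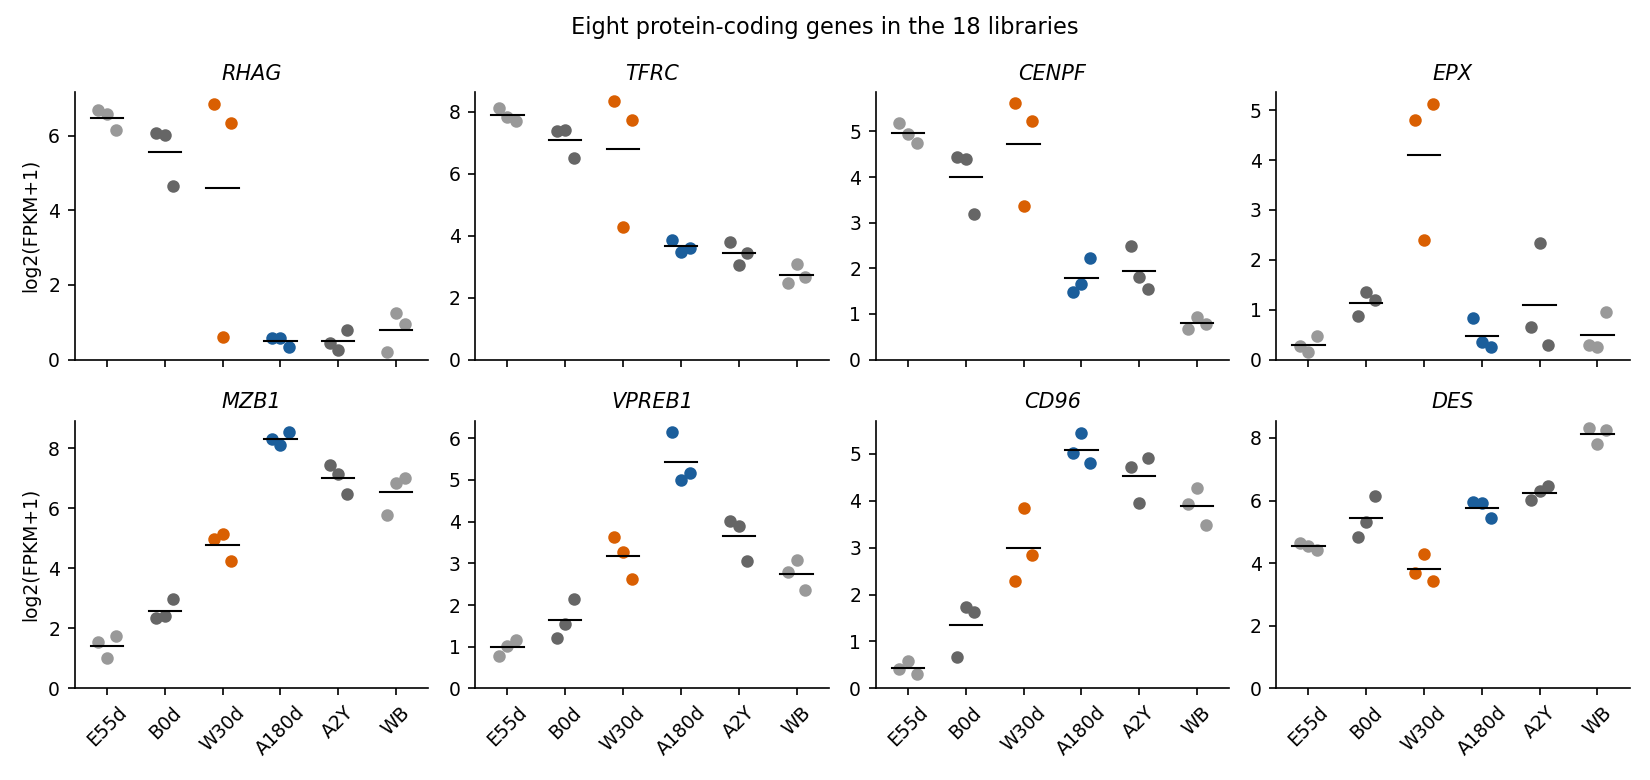
Each panel is 1 gene, with the 6 groups on the horizontal axis and log2(FPKM+1) on the vertical axis, points for the libraries and a line for their mean. RHAG, TFRC and CENPF are high at W30d except in replicate 2, EPX is highest at W30d, and MZB1, VPREB1 and CD96 have all A180d libraries above all W30d libraries. All panels show genes that were chosen for having no overlap between W30d and A180d.

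T cell genes rose in part, and W30d replicate 2 was high for several of them. Of 20 measured, 10 were higher and 0 lower, with a median of 0.70, and 10 were higher after median ratio scaling. After scaling to the sum without the most abundant gene 0 were called, with a median of 0.26, where 145 of all 12913 genes were higher. CD8A, the co-receptor of cytotoxic T cells, read 1.77, 4.38 and 2.47 at W30d and 4.30, 4.82 and 4.54 at A180d. W30d replicate 2 lay inside the A180d range (difference 1.68, adjusted p = 0.0123). CD6, a T cell surface receptor, read 1.73, 3.66 and 3.27 against 4.39, 4.67 and 4.34, without overlap (difference 1.58, adjusted p = 0.00623). CD8B rose by 1.38 and CD247, the zeta chain of the T cell receptor, by 1.304. CD4, the co-receptor of helper T cells, differed by 0.57 and was not called. When W30d replicate 2 was left out, 15 of 20 were higher with a median of 0.95, and against it alone 0 were, with a median of 0.11.

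Genes of natural killer and cytotoxic cells were placed much like those of T cells. Of 11 measured, 5 were higher and 0 lower, with a median of 0.99, and 5 were higher after median ratio scaling. After scaling to the sum without the most abundant gene 0 were called, with a median of 0.47. GZMK, granzyme K, read 0.44, 2.88 and 0.80 at W30d and 2.18, 3.60 and 3.21 at A180d (difference 1.63, adjusted p = 0.019), with W30d replicate 2 inside the A180d range. CTSW, a protease of cytotoxic cells, rose by 1.40, CST7, a cystatin that controls granule proteases, by 1.23, and FASLG, the Fas ligand, by 1.13. PRF1, perforin, differed by 0.97 and was the last of the 5 called. The list means were 2.64, 4.55 and 3.34 at W30d and 3.99, 4.60 and 4.60 at A180d. On leaving out W30d replicate 2, 9 of 11 were higher, and against it alone 0 were called, with a median of -0.16. CD96, a receptor of T and natural killer cells outside the lists, read 2.29, 3.84 and 2.84 against 5.01, 5.45 and 4.81 and rose by 2.10 (adjusted p = 0.00105).

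**Figure D3:**
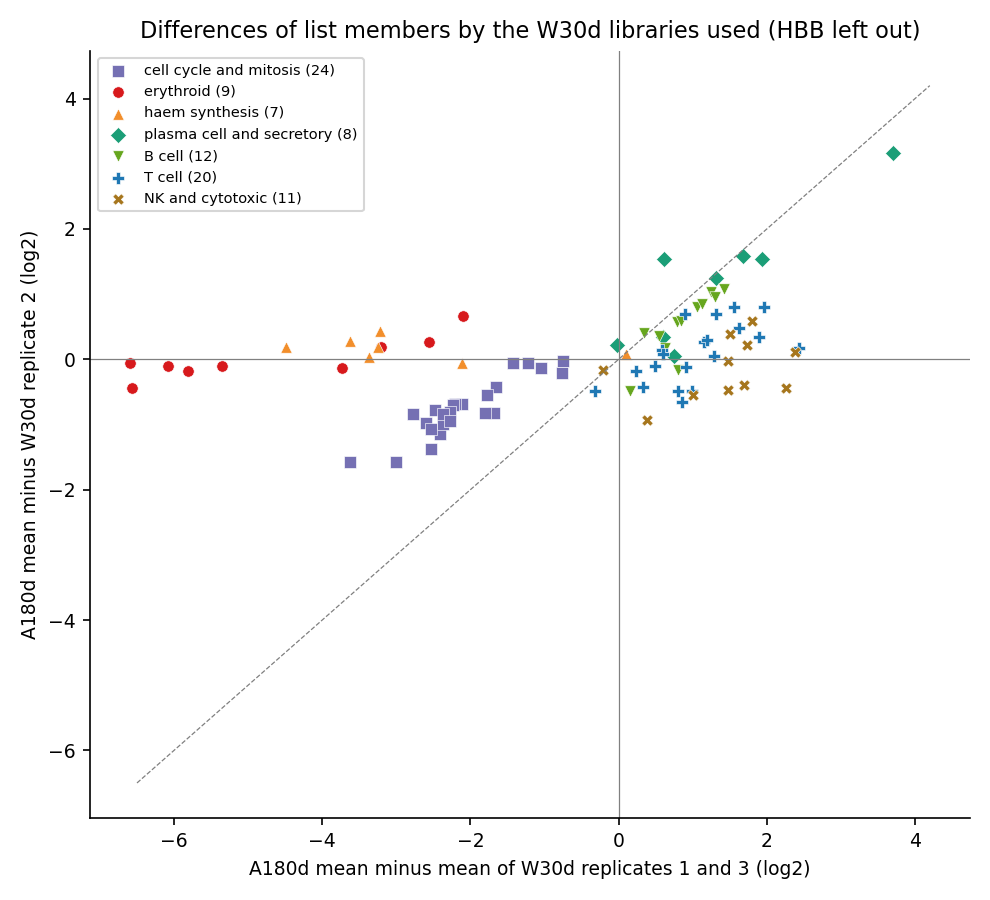
Each point is a list member, placed by its log2 difference between the A180d mean and the mean of W30d replicates 1 and 3 (horizontal) and between the A180d mean and W30d replicate 2 (vertical), and the dashed line marks equal differences. Erythroid and haem synthesis genes lie far to the left but near 0 on the vertical axis, cell cycle genes lie below 0 on both axes, and MZB1 at the upper right rose by 3.71 and 3.17. Both axes use the same A180d libraries.

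As deposited, genes of antigen presentation, complement and tissue organisation were higher in part. SLA-DQB1, an MHC class II chain, read 6.76, 7.91 and 6.53 at W30d and 8.43, 8.38 and 8.36 at A180d (difference 1.33, adjusted p = 0.00333). SLA-DMB (1.00) helps to load class II with peptide, and SLA-DOA (0.60) restrains that loading. With these, 3 of 6 class II genes were higher and 0 lower. After median ratio scaling 3 were higher as well, whereas 0 were called under the scaling without the most abundant gene. TAPBP, the tapasin of peptide loading, was the 1 of 5 class I genes called (0.78), and under that scaling 0 were higher and 2 lower. All 12913 genes had 145 higher and 4054 lower under that scaling. Of 13 genes of chemokine signalling and lymphoid tissue organisation, 6 were higher and 0 lower, with a median of 0.65, against 2 higher and 1 lower under that scaling. They included CXCR5, LTBR, the lymphotoxin receptor (1.05), GPR183, an oxysterol receptor that positions B cells (0.94), and LTA, lymphotoxin alpha (0.84).

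Of 12 complement genes 3 were higher, beside 12.8% of all genes, and 0 lower. After scaling to the sum without the most abundant gene 1 was higher and 2 lower, with a median of -0.23. All 12913 genes then had 145 higher and 4054 lower. CFD, complement factor D, read 6.45, 7.48 and 5.64 at W30d and 10.16, 9.55 and 7.87 at A180d, without overlap (difference 2.67, adjusted p = 0.0025). C4A, a component of the classical pathway, rose by 1.31 and SERPING1, the C1 inhibitor, by 0.63. CFD is also an adipocyte product, and of the 2 adipocyte markers measured, GPD1, a glycerol phosphate dehydrogenase, rose by 0.56 and PPARG differed by 0.83 without a call (summed level 3.16 to 3.36 at W30d and 4.32 to 5.01 at A180d). Their part in the CFD result was not tested. CXCL14, a chemokine outside the lists, read 0.87, 1.47 and 0.46 against 3.36, 3.39 and 3.37 (difference 2.44, adjusted p = 0.00925).

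Few genes of the macrophage and interferon lists were called, beside 28.1% of all genes. Of 16 macrophage and monocyte genes, 0 were called, with a median of 0.21, and after scaling to the sum without the most abundant gene 0 were called with a median of -0.27. Of 26 interferon response genes, HERC6, an interferon-induced ligase, was lower (-0.61) and the others were not called. Of 8 neutrophil genes, NCF4 (0.71) and NCF1 (0.68), which belong to the phagocyte oxidase, were higher, and LTF, lactoferrin, was lower (-2.23). The called share of that list was 37.5%. For NCF4, NCF1 and LTF alike, W30d replicate 2 lay inside the A180d range. LTF is also among the called genes of the iron list. Of 8 dendritic cell genes, TCF4, a transcription factor of plasmacytoid dendritic cells, was higher (0.36). That is 12.5% of the list, beside 12.8% of all genes called higher. Under that scaling 0 genes of these interferon, neutrophil and dendritic cell lists were higher, and 6, 2 and 2 were lower. Of all 12913 genes 145 were then higher and 4054 lower, so nothing is read from these counts. EPX, the peroxidase of eosinophils, was outside the lists and read 4.80, 2.40 and 5.12 at W30d and 0.82, 0.35 and 0.26 at A180d. All W30d libraries were above all A180d libraries (difference -3.63 ± 0.56, SE, n = 3 per stage, adjusted p = 0.000538), and the B0d mean was 1.14 ± 0.24 (SD, n = 3).

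Among genes of the stroma, more matrix genes were lower than higher. Of 30 extracellular matrix genes, 8 were lower and 2 higher, with a median of -0.31, beside 15.4% lower and 12.8% higher over all genes. The called share of the list was 33.3%, beside 28.1% of all genes. After scaling to the sum without the most abundant gene 15 were lower and 0 higher, with a median of -0.66. All 12913 genes then had 4054 lower and 145 higher, with a median of -0.36, so nothing is read from the counts under that scaling. ELN, elastin, read 4.40, 3.45 and 4.54 at W30d and 2.66, 2.74 and 2.32 at A180d (difference -1.56, adjusted p = 0.000687). COL5A2, a collagen of fibril assembly, fell by 1.27, THBS1, thrombospondin 1, by 1.21, and COL12A1, a fibril-associated collagen, by 1.19 on the log2 scale. ASPN, the matrix protein asporin, which is in none of the lists, read 5.07, 2.02 and 4.96 against 1.35, 1.15 and 1.298 (difference -2.75, adjusted p = 0.00265). The higher members were MMP14, a membrane-bound matrix protease (1.13), and PDGFRB, a receptor of pericytes and fibroblasts (0.96). SMOC1, a matricellular protein, read 1.56, 1.50 and 1.24 at W30d and 3.38, 3.72 and 3.004 at A180d (difference 1.93, adjusted p = 0.000578).

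Of 13 smooth muscle genes, 4 were higher and 0 lower, with a median of 0.47, beside 12.8% higher and 15.4% lower over all genes. After scaling to the sum without the most abundant gene 2 were higher and 2 lower, with a median of -0.07. All 12913 genes then had 145 higher and 4054 lower. DES, the intermediate filament desmin, read 3.69, 4.31 and 3.44 at W30d and 5.94, 5.93 and 5.43 at A180d, without overlap (difference 1.96, adjusted p = 0.000391). CNN1, the actin-binding calponin, rose by 1.85, FLNC, a filamin, by 0.84, and TAGLN, transgelin, by 0.67, whereas ACTA2, smooth muscle actin, differed by -0.0015. Without W30d replicate 2, 2 of the 13 were higher and 1 lower, beside 15.9% higher and 17.6% lower over all genes. Of 13 endothelial genes, 2 were higher, TIE1 among them (0.73), and 2 lower, TEK among them (-0.59), beside 12.8% and 15.4% of all genes. Under the other scaling 0 were higher and 2 lower, and without W30d replicate 2 the counts were 1 and 1. TIE1 and TEK are receptor kinases of the vessel wall. No skeletal muscle or pancreas gene of the lists was measured under its symbol.

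Among growth genes, IGF2BP2, an RNA-binding protein of fetal growth, read 1.09, 1.33 and 1.73 at W30d and 0.38, 0.35 and 0.25 at A180d (difference -1.06, adjusted p = 0.000477). MEST, an imprinted gene, was also lower (-0.69), but its W30d replicate 2 lay inside the A180d range. Of the 10 measured 3 were higher, with the largest rise in IGFBP6, a binding protein of insulin-like growth factor 2 (1.07). In the list of glucocorticoid, circadian and stress genes, HSP90AA1, an inducible chaperone, fell by 1.18 and CLOCK by 0.57, whereas CRY2, a circadian repressor, rose by 0.83, and the other 16 of 19 were not called. Of 16 genes of oxidative phosphorylation 0 were called, with a median of 0.03. Of 11 ribosomal protein genes 1 was called higher and 0 lower, with a median of 0.07. After scaling to the sum without the most abundant gene, 1 growth gene was higher and 3 lower. Of the other 3 lists 0 genes were higher, with 6 lower in the stress list, 5 in oxidative phosphorylation and 3 among ribosomal proteins. Of all 12913 genes 145 were then higher and 4054 lower, so nothing is read from these list counts. ALB and APOA1, the measured liver markers, and the 3 mesothelial markers were not called.

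Other genes with large differences had less clear identities. The identifier paired with TRMO had the largest fall among genes with a symbol and no overlap, from 8.28, 1.04 and 7.78 at W30d to 0.68, 0.99 and 0.56 at A180d (difference -4.96, adjusted p = 0.00738). TRMO codes for a tRNA methyltransferase and is next to HEMGN, the erythroid gene hemogen, in the gene order of Sscrofa11.1, a newer build than the one the files use. TRAK2, a motor adaptor, read 7.02, 3.03 and 6.80 against 2.89, 2.88 and 2.72. For both, W30d replicate 2 stood just above A180d. The identifier paired with GNB1, which codes for a G protein beta subunit, has its symbol from the same newer annotation, and whether the values are those of that gene was not tested. It read 0.58, 0.53 and 0.55 against 3.28, 3.06 and 2.86, with a difference of 2.51 ± 0.15 (SE, n = 3 per stage, adjusted p = 1.04e-07).

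The table of protein-coding genes also held small nucleolar RNAs, whose FPKM depends strongly on their short length. SNORA74 read 12.13, 11.43 and 10.001 at W30d and 14.06, 14.38 and 14.18 at A180d (difference 3.02, adjusted p = 0.00504). SNORD17 read 10.04, 10.37 and 10.34 against 12.36, 12.07 and 12.58 (difference 2.09, adjusted p = 0.00251). Among identifiers without a symbol, ENSSSCG00000020578 rose by 7.45 and ENSSSCG00000030868 by 5.48, whereas ENSSSCG00000022042 fell by 5.84. ENSSSCG00000029773 fell by 8.90, with 13.42, 10.47 and 12.93 against 0.00, 9.35 and 0.77, so its A180d libraries did not share a level.

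The most abundant entry, ENSSSCG00000018700, took 43.0, 49.99 and 41.1% of the summed FPKM of protein-coding genes in W30d and 42.7% in A180d replicate 3. It is listed at 0 in A180d replicates 1 and 2. The mean share was 44.7% ± 4.7 (SD, n = 3) at W30d and 14.2% ± 24.7 (SD, n = 3) at A180d, and the two-sided exact permutation test gave p = 0.2. The groups overlap, and no fold is given for this gene.

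LncRNAs, transcripts without coding potential, went mainly in 1 direction. Of 14129 tested, 1753 were called (12.4%), of which 141 were higher at A180d (0.998%) and 1612 lower (11.4%). The median difference was -0.20, and 78.6% of all lncRNAs were below 0, against 50.1% of protein-coding genes. Without W30d replicate 2, 134 were higher (0.948%) and 1036 lower (7.33%), and against that library alone 43 were higher (0.304%) and 1722 lower (12.2%). Leaving out an A180d library left fewer calls, with 349, 708 and 453 called without A180d replicates 1, 2 and 3. In 39.5% of the lncRNAs the stages did not overlap, with 437 higher (3.09%) and 5138 lower (36.4%) at A180d.

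The numbers of lncRNAs detected showed the same difference. FPKM was above 0 for 12525, 12245 and 12447 lncRNAs in the W30d replicates 1 to 3 and for 11195, 11471 and 10929 at A180d. Every W30d library had more than every A180d library, and the means differed by -1207 (two-sided exact permutation test, p = 0.1, the smallest possible). The part of depth in this difference was not tested. Outside the comparison, A2Y libraries detected 12905, 13359 and 13110 lncRNAs and WB libraries 11245, 11225 and 11305. A2Y was thus above W30d, and WB lay within the A180d range. Each A2Y library had more filtered sequence, by the study's listing, than any W30d, A180d or WB library, and its part was not tested. Above an FPKM of 0.1 the means were 11113 ± 99 and 8489 ± 599, and above an FPKM of 1 they were 2380 ± 708 and 1260 ± 128 (SD, n = 3). Above an FPKM of 1 W30d replicate 2 had the most, with 3188 against 1870 and 2083 in W30d replicates 1 and 3. The median lncRNA level was 0.43 ± 0.07 at W30d and 0.18 ± 0.034 at A180d (SD, n = 3, exact permutation p = 0.1). It too was highest in W30d replicate 2, at 0.51 against 0.37 and 0.41.

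The share of lncRNAs in the summed FPKM of both tables overlapped between the stages. It was 1.32, 1.81 and 1.68% at W30d and 1.40, 1.14 and 0.573% at A180d (exact permutation p = 0.2). When the most abundant protein-coding gene was left out of the sum, the share was 2.89% ± 0.63 at W30d and 1.18% ± 0.20 at A180d (SD, n = 3), without overlap (exact permutation p = 0.1). In A180d replicate 2 that sum still held another entry with 32.15% of the summed FPKM of protein-coding genes. The part of such entries in the lower share was not tested.

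**Figure D4:**
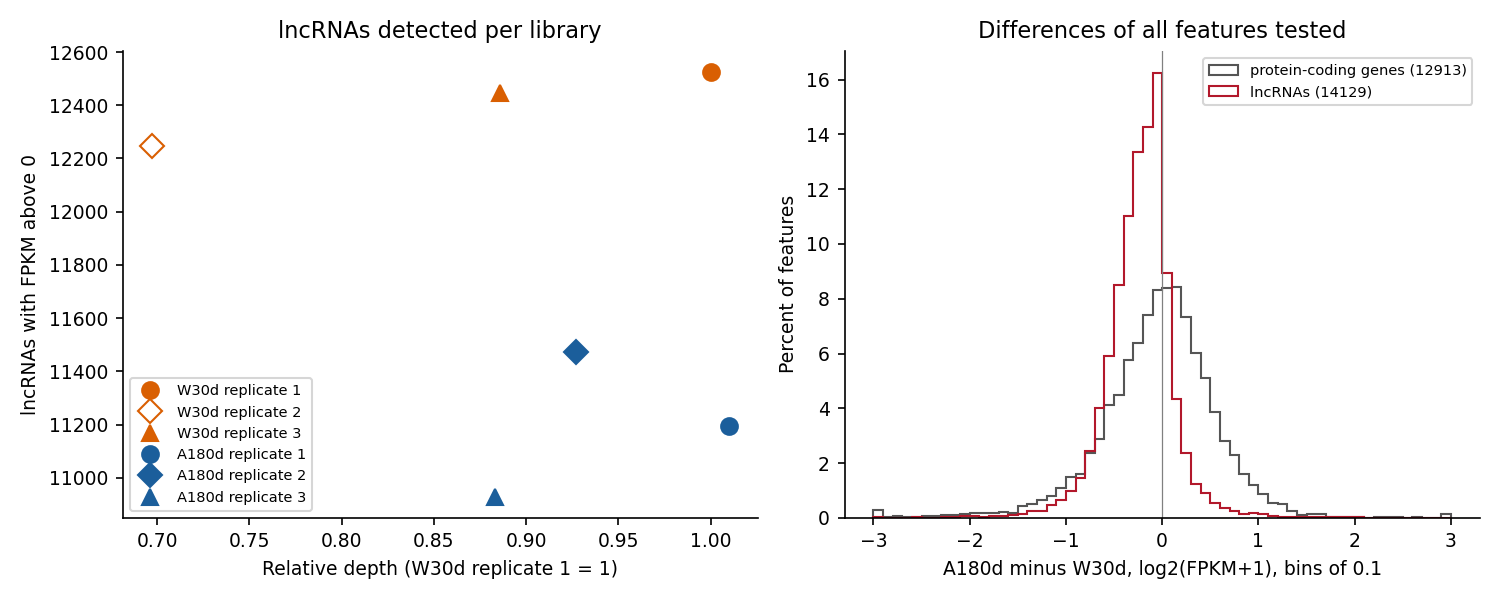
The left panel plots the number of lncRNAs with FPKM above 0 against the estimated relative depth of the 6 libraries, and its vertical axis does not start at 0. The right panel shows the percent of features per bin of the A180d minus W30d difference, with values beyond 3 placed in the end bins. W30d libraries detected 12245 to 12525 lncRNAs and A180d libraries 10929 to 11471, and the lncRNA distribution is shifted below 0 (median -0.20) while that of protein-coding genes is not (median -0.0009).

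The most abundant lncRNA, TU47080, read 10.43, 11.04 and 10.89 at W30d and 8.43, 8.92 and 8.72 at A180d. All W30d libraries were higher, replicate 2 included, with a difference of -2.09 ± 0.20 (SE, n = 3 per stage, adjusted p = 5.06e-05). TU47166 was another lncRNA whose W30d libraries were close together, at 4.65, 4.41 and 4.99 against 1.36, 2.52 and 2.46 (difference -2.57, adjusted p = 0.000804). The largest fall among called lncRNAs without overlap was that of TU18965, from 7.83, 3.67 and 7.31 to 2.13, 2.36 and 2.43 (difference -3.96, adjusted p = 0.00203), with W30d replicate 2 nearer to A180d. TU79421 fell by 2.75, although A180d replicate 2, at 4.34, nearly reached the lowest W30d library, at 4.40. TU39066 read 1.16, 0.74 and 1.09 against 0.10, 0.11 and 0.10 (difference -0.89, adjusted p = 0.00131).

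Rising lncRNAs were few. TU13204 read 1.27, 1.49 and 2.11 at W30d and 3.93, 4.63 and 4.64 at A180d (difference 2.78, adjusted p = 0.00131). TU69282 went from 0.19, 0.38 and 0.21 to 2.81, 2.29 and 2.47, and TU80776 from 4.06, 5.46 and 4.49 to 6.69, 7.10 and 6.76. In each case the lowest A180d library was above the highest W30d library, which the choice of these lncRNAs required. TU60766, TU13178 and TU198 rose by 2.03, 2.01 and 1.99, and TU78568 by 1.79 (3.92, 5.01 and 3.64 against 5.64, 6.09 and 6.22).

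A set of 305 lncRNAs was detected in all W30d libraries and in no A180d library, and 52 showed the reverse. Most were low, with a median of the mean FPKM of 0.244 and 0.26 in the stage of detection. Of the 305, 300 were detected in at least 1 B0d library, 289 in at least 1 A2Y library and 189 in at least 1 WB library. Of the 300 that were tested, 58 were called lower, beside 11.4% of all lncRNAs, and 15 of the 52 were called higher, beside 0.998%. These sets were chosen on the same values, so nothing is read from those counts. TU45847 was the most abundant of the first set, at 3.76, 0.77 and 4.49 in W30d, followed by TU45846, at 3.27, 1.09 and 4.38 (adjusted p = 0.023 and 0.047). TU45849, at 1.91, 0.29 and 2.95, was not called (adjusted p = 0.074). TU34828 was at 2.74, 2.35 and 4.14 in W30d and at 0 in A180d replicates 1 and 2, with 0.75 in replicate 3. In the other direction, TU73399 reached 1.25, 0.60 and 1.22 at A180d, TU62010 0.19, 1.12 and 1.25, and TU12702 0.79, 0.66 and 0.91, and all of them were called. A 0 for a lncRNA stands for an empty cell of the deposited table, which holds no exact 0, and "detected" means that the cell held a value.

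**Figure D5:**
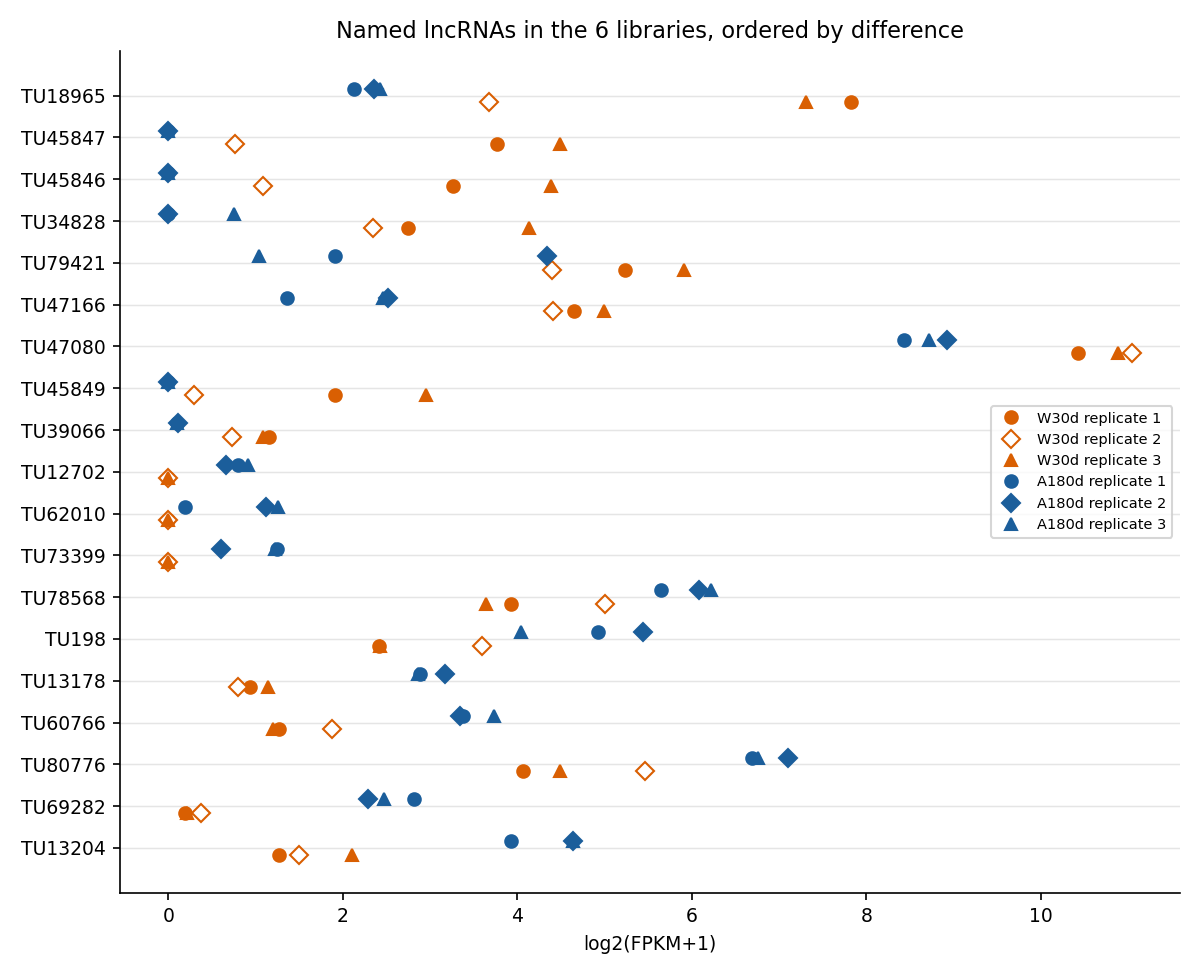
Rows are the named lncRNAs ordered by their difference, and points are log2(FPKM+1) in the 6 libraries, with W30d in orange, its replicate 2 as an open diamond, and A180d in blue. For TU47080 and TU47166 the W30d libraries lie close together above A180d, whereas for TU18965, TU45847 and TU45846 replicate 2 lies nearer to A180d.

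The called features were then followed from newborns to 2-year-old pigs, in libraries that are not part of the W30d to A180d contrast. These libraries were in the same fitted model, and their spread entered the variance behind the calls. Features with a low spread in them were thus more easily called both times, so the shares below are a description and not an independent test. Of the 1648 genes higher at A180d, 81.6% were above 0 in the B0d to A2Y difference, against 57.6% of all genes, and 690 were called higher (41.9%) and 34 lower, against 19.1 and 11% of all genes. Of the 1985 lower at A180d, 70.3% were below 0 against 42.4% of all genes, and 561 were called lower (28.3%) and 91 higher. In the comparison of B0d with WB, 93.8% of the higher genes were above 0, beside 56.8% of all genes, and 90.7% of the lower genes were below 0, beside 43.2%. In it 1083 of the 1648 were called higher, beside 24.3% of all genes, and 1169 of the 1985 lower, beside 15.3%. For lncRNAs, 84.4% of the 141 higher ones were above 0 from B0d to A2Y and 81.7% of the 1612 lower ones were below 0, where 60.1% of all lncRNAs were below 0. From B0d to A2Y, 51 of the 141 were called higher (36.2%, beside 5.23% of all lncRNAs) and 466 of the 1612 lower (28.9%, beside 12.8%). From B0d to WB, 97.3% of the lower lncRNAs were below 0, beside 80.5% of all lncRNAs, so the background was itself mainly downward. In that comparison 51 of the 141 were called higher, beside 2.65% of all lncRNAs, and 1333 of the 1612 lower, beside 40.5%. The median difference of the 1612 lower lncRNAs was -0.17 from W30d to A2Y and 0.52 from A180d to A2Y, where all lncRNAs had 0.07 and 0.26. These comparisons share the W30d or the A180d libraries with the contrast that chose the lncRNAs, so they are a description.

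W30d replicate 2 held different positions for genes and lncRNAs. Among called protein-coding genes it was nearer to the A180d mean than to the other W30d libraries in 32.9% of those higher and 39.6% of those lower at A180d. Among called lncRNAs the shares were 10.6 and 15.9%. These positions are given as a description, since W30d replicate 2 took part in the calls.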

How the data were processed

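Spleen RNA of 18 pigs in 6 groups was extracted with TRIzol, and strand-specific libraries were sequenced. The authors mapped reads with TopHat, assembled and quantified transcripts with StringTie 1.3.3, removed annotated ones with a tool of Cufflinks 2.2.1 and deposited log2 values, log2(FPKM+1). The build given in the submitters' processing notes is Sscrofa10.2. Whether a further scaling was applied is not given in the sources used here.

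The deposited log2 values of 12913 protein-coding identifiers and 15040 lncRNAs were used with the pseudocount of 1, and 52256 missing lncRNA cells were read as FPKM 0. Symbols came from a table of a newer annotation, which paired 8215 of 12432 Ensembl identifiers and left 4698 identifiers without a symbol, 481 of them not Ensembl identifiers. The reads behind a value are unknown, so no counting interval is given. Relative depth was taken from the commonest ratio between a pair of libraries among lncRNAs under 0.3 FPKM.

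Features exceeding an FPKM of 0.1 in 3 or more libraries were fitted with limma 3.58.1 in R 4.3.3 (1 model of 18 libraries in 6 groups, no block, variance trend, Benjamini-Hochberg adjustment, limit 0.05). The study itself tested read counts, which were not used here. Exact permutation tests used scipy 1.17.1, and with 3 libraries against 3 cannot go below p = 0.1. The fit was tested on simulated data. Named features were the 10 largest rises and falls with a symbol, an adjusted p of at most 0.05 and no overlap, up to 4 called members of each of 33 gene lists by size, the 2 largest rises and falls without a symbol, 6 lncRNAs per direction, the 3 highest detected in 1 stage only per direction, TU78568, TU39066, and the most abundant of each table. Members that were not called, and PRF1, PRDM1, SDC1, KEL, DMTN, XPO7, NCOA4, MMP14 and PDGFRB, were named after their values were seen. Results of 2 genes that the rule selects are not reported here. Of 672 listed symbols 343 were measured, in 30 lists, and the lists without a measured member were pancreas, skeletal and heart muscle, and imprinted and X-inactivation noncoding names. The groups and lists were chosen with earlier results of these data known. Alternatives were other filters, pseudocount, scalings, model terms and libraries, and the fits with W30d replicate 2 alone were added after seeing the data. Sequences and coordinates were not analysed here.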

Additional observations from a re-analysis of the deposited data

How the results depend on the processing

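The number of called protein-coding genes, 3633, was 7966 with array weights, 2688 with a replicate block, and 191 with W30d replicate 2 as the lone W30d library, and leaving out 1 library at a time gave 1820 to 4330. The 1753 called lncRNAs became 3695 with a pseudocount of 0.1, 4332 with array weights, 1005 after scaling without the most abundant gene, 906 with only the 6 libraries in the model and 754 with a replicate block without E55d. They ranged from 349 to 1494 when 1 library was left out. The number of lncRNAs detected in all W30d and no A180d libraries rose from 305 to 852 at an FPKM limit of 0.1, and the reverse from 52 to 54. The replicate numbers do not pair the animals: deviations of same-numbered libraries correlated at -0.055 to 0.076 for protein-coding genes and 0.042 to 0.097 for lncRNAs. After median ratio scaling, 9 of 12 B cell, 6 of 8 plasma cell, 10 of 20 T cell and 5 of 11 cytotoxic genes were called higher. After scaling without the most abundant gene, these counts were 2, 4, 0 and 0, and 24 of 24 cell cycle genes were lower. Of all 12913 genes 145 were then higher and 4054 lower, with a median of -0.36. Under the scaling without the most abundant gene the medians of the macrophage (-0.27) and smooth muscle (-0.07) lists changed sign. TCF4 reversed under that scaling (-0.15). UROD (0.28), FECH (0.19) and CPOX (0.031) reversed against W30d replicate 2 alone, by the choice of that library. The other alternatives kept the direction of every one of the 112 named or listed features they could fit. With only the 6 libraries in the model, 42 of the 112 lost their call, and leaving out W30d replicates 1 or 3 ended 41 and 42. The cause of these changes was not tested. The depth behind single values is unknown, which limits statements on lncRNAs near an FPKM of 0.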
